A study of Mus musculus with 9 samples.

Results

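The 31 genes described here encode the enzymes, carriers and regulators that burn pyruvate, ketone bodies and branched-chain keto acids in the mitochondrion, with the enzymes of the malate-aspartate shuttle. They were taken as a list of gene symbols, set by function with earlier results of these data known, and all 31 were found among the 55401 genes counted and among the 16762 genes that passed the filter on low counts. RNA was sequenced from 9 cultures of primary neonatal mouse ventricular myocytes (NMVMs), the heart muscle cells of WT C57BL/6J pups of 1 day of age. The control group (3 libraries) stayed in normal oxygen in complete medium, that is DMEM with fetal bovine serum. The hypoxia group (3 libraries) was kept for 6 h in an AnaeroPack chamber, which removes oxygen, in DMEM without glucose and serum. The hypoxia + rSRGN group (3 libraries) was treated in the same way with recombinant serglycin, a secreted proteoglycan, in the medium. Against control, the effects of low oxygen, of lost glucose and of lost serum cannot be told apart. A primary culture holds other cells beside myocytes, and no source used here says that the 3 libraries of a group came from separate isolations, so the p-values may measure technical spread.

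Pyruvate made from glucose enters the mitochondrion through a carrier and is turned into acetyl-CoA by the pyruvate dehydrogenase complex, which kinases switch off and phosphatases switch on. The tricarboxylic acid (TCA) cycle then oxidises acetyl-CoA and passes electrons to the respiratory chain, while the malate-aspartate shuttle carries reducing power from the cytosol into the mitochondrion. The heart also oxidises ketone bodies and branched-chain amino acids, and the ability to burn many fuels develops with the maturation of the cardiac myocyte after birth.

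Total counts were 21669017 to 22781557 in control, 16583985 to 18148474 in hypoxia and 16640239 to 20826701 in hypoxia + rSRGN, and each of the 31 genes had between 117 and 27688 counts in every library. Levels are given as CPM, that is counts relative to the library's total after TMM scaling, and as CPM per kilobase of exon where genes are compared with each other. The markers of the cell type were checked first. The 12 cardiomyocyte markers, among them Myh6, Tnnt2 and Actn2, were detected in all libraries, and their summed level was 44644 to 54151 CPM in control, 3818 to 5890 CPM in hypoxia and 7483 to 8037 CPM in hypoxia + rSRGN. All 12 were called lower in hypoxia than in control (median log2 change -3.70), and 10 of 12 were called higher in hypoxia + rSRGN than in hypoxia (median 0.77). Of the 8 fibroblast markers 6 were called higher in hypoxia than in control, and their summed level was 8647 to 10232 CPM in control and 17074 to 19858 CPM in hypoxia. The 6 macrophage markers were all called lower (220.9 to 237 CPM against 24.1 to 26.8 CPM, with 2 of the 6 at 0 in at least 1 hypoxia library), as were 4 of 6 endothelial markers (67.7 to 93.1 CPM against 44.6 to 59.6 CPM). Of the 5 smooth muscle and pericyte markers 1 was called lower and 1 higher (1297 to 1555 CPM against 1871 to 2196 CPM). Beside these counts, 25.1% of the 16762 genes tested were called lower and 26.4% higher in hypoxia against control. In hypoxia + rSRGN against hypoxia the shares were 0.859% lower and 2.27% higher. In such cultures fewer cells of a type and less RNA per cell cannot be told apart.

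To show what stands in front of the genes on which the results turn, promoters of RefSeq (GRCm38.p6, 250 bases before to 50 bases after the start) were read for 27 of the 31 genes in 36 promoters. No promoter was listed for Idh3a, Dbt, Acat1 and Pdp1. The letters of 2 forms of the hypoxia-inducible factor (HIF) element were searched on both strands, as HIF is the main transcription factor of the response to low oxygen. Counted by gene, over all promoters listed for it, ACGTG was found in 6 of the 27 members (22.2%) and in 28.5% of the 11686 genes tested that have a promoter, and GCGTG in 16 of the 27 (59.3%) and in 53.9%. Counted by promoter the shares were 30.6% of the members' and 24.5% of the 14933 promoters of genes tested for ACGTG, where 6 of the 11 members' promoters were those of Ogdh, and 55.6% and 48.1% for GCGTG. Letters known from other regulators of mitochondrial genes were rarer. CGCATGCG, the core of the NRF1 site, was in 1 of the 27 members (Ogdh, 3.70%) and in 3.90% of the genes tested. AAGATGGC, a YY1 element, was in 2 (7.41%) and in 4.87%, and CCGGAAGT, an ETS element, was in 1 (3.70%) and in 8.27%. TNAAGGTCA, the site of estrogen-related receptors with N for any base, was in 0 of the 27 and in 0.899% of the genes tested. A match of letters is a description and not a bound site, and promoters of 1 gene share sequence. The stretches below hold the NRF1 core of Ogdh and, for the pairs of Mdh1 with Mdh2 and of Oxct1 with Bdh1, 1 HIF element of each gene, read on the strand of the gene, with the matched letters in capitals on either strand and 12 bases on each side.
Ogdh (chr11:6292532-6292563, plus strand, NRF1 core): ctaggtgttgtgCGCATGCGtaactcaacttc
Mdh1 (chr11:21572117-21572145, minus strand, HIF element): ctcggtggagcgACGTGtgctgtcgctca
Mdh2 (chr5:135778540-135778568, plus strand, HIF element): gccgggtctaggGCGTGctagacaaggaa
Oxct1 (chr15:4026319-4026347, plus strand, HIF element): ttggaaaagtaaCACGTtcagtaagagac
Bdh1 (chr16:31422256-31422284, plus strand, HIF element): ttcgatgacaaaCACGCagacatccggct
Among other paired genes, Sucla2, Suclg2 and Idh3b held neither HIF form in their promoters, Bckdha, Bckdhb, Got1, Got2 and Pdha1 held GCGTG, and Idh3g and Pdhb held both. Ogdh, which is in no pair, also held both.

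In hypoxia against control 28 of the 31 genes were called lower, 1 was called higher and 2 were not called. Calls needed both an adjusted p under 0.05 (edgeR's quasi-likelihood test, Benjamini-Hochberg over all 16762 genes) and a change of 1.5-fold or more. Of all genes tested 25.1% were called lower and 26.4% higher. The 28 lower genes kept between 19.7% and 63.2% of their control level, and the median log2 change was -1.29 over the 31 genes and 0.05 over all genes tested. Their summed level was 8643 to 8867 CPM in the control libraries and 2918 to 3240 CPM in the hypoxia libraries. The cardiomyocyte and macrophage markers fell in the same libraries, as did 4 of the 6 endothelial markers. Of the 8 fibroblast markers 6 rose. The values are given above, and the part of these markers in the result was not tested.

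**Figure D1:**
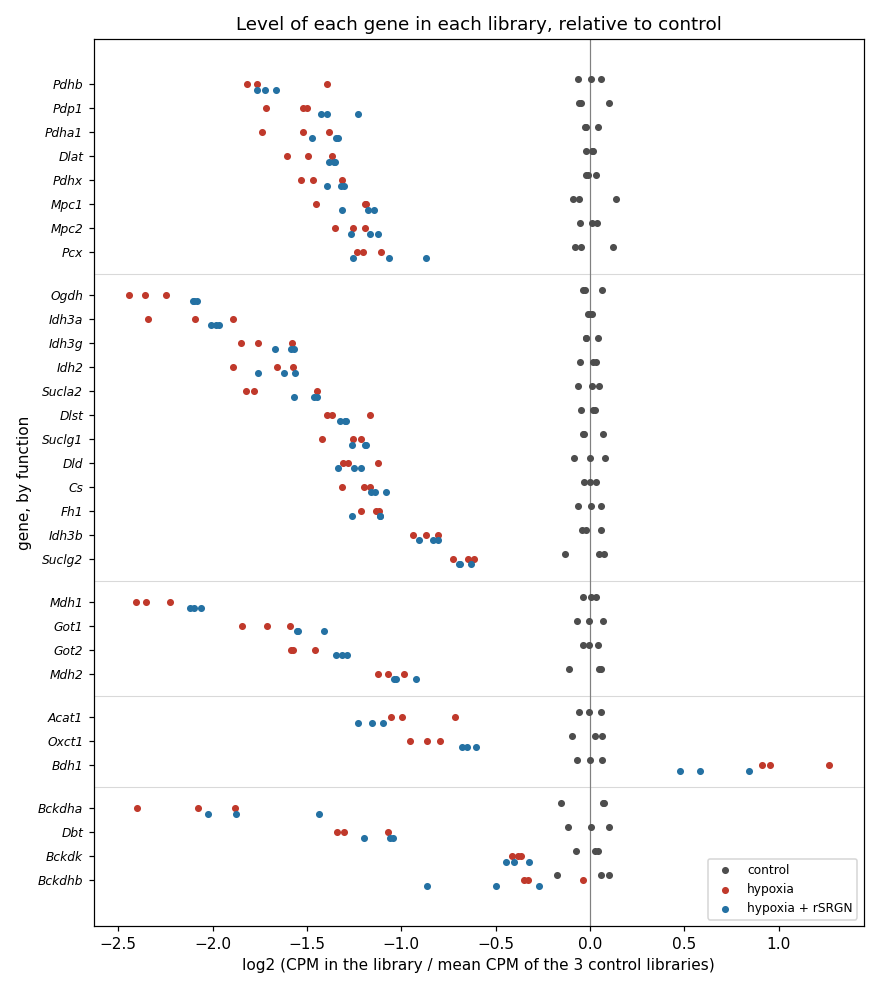
Level of each of the 31 genes in each library (x axis, log2 of the CPM over the mean CPM of the 3 control libraries; 1 point per library; genes grouped by function, from pyruvate entry at the top to the branched-chain complex at the bottom). The red and blue points of hypoxia and hypoxia + rSRGN lie to the left of the control points for all genes other than Bdh1, which lies to the right, and Bckdhb, whose groups meet. Such separation was common: of the 16762 genes tested, 5925 lay wholly below control in hypoxia and 6317 wholly above. In hypoxia + rSRGN the numbers were 6143 and 6138.

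All 8 genes of pyruvate entry fell in hypoxia, by 1.18 to 1.65 on the log2 scale. Pdha1 (chrX:160122209-160138413, minus strand, mm10), which encodes the alpha subunit of the first enzyme of the pyruvate dehydrogenase complex, counted 489, 491 and 514 CPM in the 3 control libraries, 174, 191 and 149 CPM in hypoxia, and 196, 197 and 179 CPM in hypoxia + rSRGN. Hypoxia lay below control in every library (log2 change -1.54 ± 0.08 SE, adjusted p = 1.81e-13). Its partner Pdhb (chr14:8165996-8173025, minus strand), the beta subunit of the same enzyme, counted 340, 324 and 352 CPM in control, 99.6, 129 and 96.2 CPM in hypoxia, and 107, 99.5 and 103 CPM in hypoxia + rSRGN. The hypoxia library with 129 CPM stood above the other 2, and the change of Pdhb was -1.65 ± 0.09 (adjusted p = 3.17e-13). The transacetylase Dlat, the core of the complex, ranged from 177 to 181 CPM in control and from 59.0 to 69.6 CPM in hypoxia (-1.49 ± 0.07, adjusted p = 5.25e-14). Pdhx, which holds the third enzyme to this core, ranged from 75.8 to 78.8 CPM and from 26.7 to 31.0 CPM (-1.43 ± 0.08, adjusted p = 1.03e-12). Pdp1, the phosphatase that switches the complex on, ranged from 56.3 to 63.0 CPM and from 17.9 to 20.8 CPM (-1.57 ± 0.10, adjusted p = 2.47e-12). Both parts of the mitochondrial pyruvate carrier fell, Mpc1 by 1.27 ± 0.11 (29.7 to 34.8 CPM in control, 11.5 to 13.9 CPM in hypoxia) and Mpc2 by 1.27 ± 0.08 (88.5 to 94.2 CPM and 36.0 to 40.0 CPM). Pyruvate carboxylase (Pcx), which feeds oxaloacetate to the cycle, had the smallest fall of the 8, from 38.1 to 43.8 CPM to between 17.1 and 18.7 CPM (-1.18 ± 0.11, adjusted p = 1.76e-09).

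All 12 genes of the TCA cycle fell in hypoxia, by 0.66 to 2.35 on the log2 scale. Ogdh (chr11:6291633-6356642, plus strand), the first enzyme of the alpha-ketoglutarate dehydrogenase complex, had the largest fall of all 31 genes. It counted 593, 633 and 589 CPM in control, 127, 118 and 111 CPM in hypoxia, and 143, 141 and 141 CPM in hypoxia + rSRGN. The hypoxia libraries held 19.7% of the control level (-2.35 ± 0.07, adjusted p = 2.99e-17), and the 3 groups did not overlap. The other subunits of the same complex had smaller changes, a difference that was not tested. Dlst, the succinyltransferase core, ranged from 348 to 367 CPM in control and from 137 to 161 CPM in hypoxia (-1.30 ± 0.07, adjusted p = 4.34e-13). Dld, the dihydrolipoamide dehydrogenase that the pyruvate, alpha-ketoglutarate and branched-chain complexes share, ranged from 258 to 289 CPM and from 110 to 126 CPM (-1.24 ± 0.07, adjusted p = 1.57e-12).

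The subunits of the NAD-dependent isocitrate dehydrogenase, a controlled step of the cycle, all fell. Idh3a (chr9:54586334-54604661, plus strand), the catalytic subunit, counted 516, 513 and 510 CPM in control, 120, 138 and 101 CPM in hypoxia, and 131, 130 and 128 CPM in hypoxia + rSRGN, and fell by 2.10 ± 0.09 (adjusted p = 2.69e-15). Idh3g (chrX:73778963-73786897, minus strand), a regulatory subunit, counted 278, 278 and 290 CPM in control, 83.3, 94.3 and 78.2 CPM in hypoxia, and 95.1, 88.6 and 94.0 CPM in hypoxia + rSRGN. Its fall was 1.72 ± 0.08 (adjusted p = 7.49e-15). The other partner, Idh3b (chr2:130279309-130284547, minus strand), counted 176, 178 and 189 CPM in control, 99.2, 103 and 94.4 CPM in hypoxia, and 103, 96.7 and 101 CPM in hypoxia + rSRGN, with a fall of 0.87 ± 0.07 (adjusted p = 2.26e-10). The ratio of Idh3a to Idh3b per kilobase was thus 1.82 to 1.98 in control and 0.724 to 0.903 in hypoxia. The NADP-dependent Idh2 of the mitochondrion ranged from 388 to 412 CPM in control and from 108 to 135 CPM in hypoxia (-1.70 ± 0.08, adjusted p = 3.62e-14).

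Succinyl-CoA synthetase joins a shared subunit, Suclg1, with either Sucla2, which makes the enzyme that forms ATP, or Suclg2, which makes the one that forms GTP. Sucla2 (chr14:73525319-73596142, plus strand) counted 254, 241 and 260 CPM in control, 71.1, 92.4 and 73.3 CPM in hypoxia, and 92.2, 91.2 and 84.8 CPM in hypoxia + rSRGN. Suclg2 (chr6:95473009-95718800, minus strand) counted 74.1, 65.4 and 75.6 CPM in control, 43.3, 46.8 and 45.9 CPM in hypoxia, and 44.4, 44.3 and 46.3 CPM in hypoxia + rSRGN. Sucla2 fell by 1.67 ± 0.09 (adjusted p = 1.25e-13) and Suclg2 by 0.66 ± 0.08 (adjusted p = 1.73e-07), the smallest of the 28 falls. Suclg1 ranged from 152 to 164 CPM in control and from 58.2 to 67.2 CPM in hypoxia (-1.29 ± 0.07, adjusted p = 7.69e-13). Citrate synthase (Cs), which joins acetyl-CoA to oxaloacetate, ranged from 816 to 850 CPM and from 335 to 371 CPM (-1.22 ± 0.07, adjusted p = 5.77e-13), and fumarate hydratase (Fh1) ranged from 182 to 197 CPM and from 81.9 to 87.4 CPM (-1.15 ± 0.07, adjusted p = 3.01e-12).

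All 4 enzymes of the malate-aspartate shuttle fell. Mdh1 (chr11:21556692-21572367, minus strand), the malate dehydrogenase of the cytosol, was the most abundant of the 31 genes in control at 457 ± 10.6 CPM per kilobase (SD, n = 3). It counted 1243, 1187 and 1223 CPM in control, 259.7, 238 and 229.8 CPM in hypoxia, and 284, 280.4 and 291 CPM in hypoxia + rSRGN, and fell by 2.33 ± 0.07 (adjusted p = 3.02e-17). Its mitochondrial counterpart Mdh2 (chr5:135778480-135790398, plus strand), which is also the last enzyme of the TCA cycle, counted 534, 594 and 599 CPM in control, 275, 264 and 290.5 CPM in hypoxia, and 282, 281 and 304 CPM in hypoxia + rSRGN. The fall of Mdh2 was 1.06 ± 0.07 (adjusted p = 1.56e-11). In control Mdh1 stood at 2.67 to 3.11 times the level of Mdh2 per kilobase, and in hypoxia at 1.06 to 1.27 times. Each aspartate aminotransferase of the shuttle transfers amino groups within its own compartment. Got1 of the cytosol (chr19:43499752-43524605, minus strand) counted 282, 309.7 and 295 CPM in control, 90.2, 98.3 and 82.2 CPM in hypoxia, and 101, 101 and 111 CPM in hypoxia + rSRGN. Got2 of the mitochondrion (chr8:95864134-95888547, minus strand) counted 442, 451 and 466 CPM in control, 165, 151 and 152 CPM in hypoxia, and 182, 186 and 178 CPM in hypoxia + rSRGN. Their falls were 1.71 ± 0.08 (adjusted p = 1.33e-14) and 1.54 ± 0.07 (adjusted p = 9.12e-15).

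The 3 genes of ketone body oxidation went different ways. Bdh1 (chr16:31422280-31458901, plus strand), which oxidises beta-hydroxybutyrate to acetoacetate, was the lowest of the 31 genes at 1.67 ± 0.079 CPM per kilobase in control. It counted 6.19, 6.81 and 6.52 CPM in control, 12.2, 15.6 and 12.6 CPM in hypoxia, and 9.04, 9.77 and 11.7 CPM in hypoxia + rSRGN. All hypoxia libraries lay above all control libraries, and Bdh1 rose 2.07-fold (1.05 ± 0.14, adjusted p = 1.05e-06). Oxct1 (chr15:4026383-4155344, plus strand), the transferase that activates acetoacetate and sets the use of ketone bodies outside the liver, counted 456, 418 and 467 CPM in control, 246, 257 and 231 CPM in hypoxia, and 284, 294 and 279 CPM in hypoxia + rSRGN. It fell by 0.87 ± 0.07 (adjusted p = 3.15e-10). The thiolase Acat1, which splits acetoacetyl-CoA, ranged from 141 to 152 CPM in control and from 70.4 to 89.1 CPM in hypoxia (-0.91 ± 0.08, adjusted p = 1.90e-09).

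Of the 4 genes of the branched-chain keto acid dehydrogenase complex, which commits the carbon of leucine, isoleucine and valine to oxidation, 2 fell and 2 were not called. Bckdha (chr7:25629946-25658981, minus strand), the alpha subunit of its first enzyme, counted 31.96, 37.3 and 37.5 CPM in control, 9.65, 6.75 and 8.44 CPM in hypoxia, and 9.70, 8.76 and 13.1 CPM in hypoxia + rSRGN. It fell by 2.10 ± 0.14 (adjusted p = 1.45e-11). The beta subunit, Bckdhb (chr9:83925145-84124240, plus strand), counted 16.7, 16.2 and 13.8 CPM in control, 12.2, 15.2 and 12.4 CPM in hypoxia, and 12.9, 8.56 and 11.03 CPM in hypoxia + rSRGN. Control and hypoxia overlapped, and the change of Bckdhb was -0.23 ± 0.14 (adjusted p = 0.143). Dbt, the transacylase core, ranged from 41.6 to 48.5 CPM in control and from 17.8 to 21.5 CPM in hypoxia (-1.23 ± 0.10, adjusted p = 3.63e-10). Bckdk, the kinase that switches the complex off, ranged from 57.9 to 62.9 CPM and from 45.9 to 47.4 CPM, with an adjusted p of 0.00014 and a change of -0.39 ± 0.08 that is under the fold limit.

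**Figure D2:**
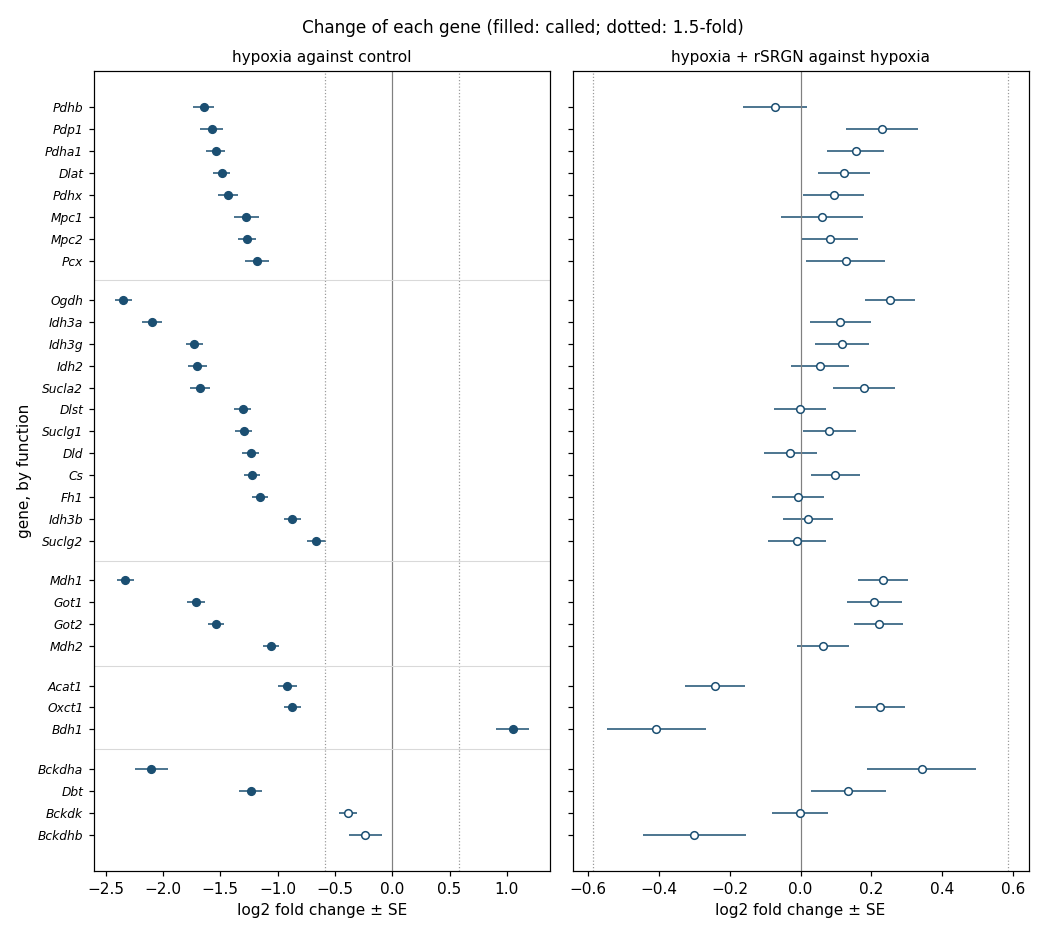
Log2 fold change of each gene with its SE (bars) in hypoxia against control (left) and in hypoxia + rSRGN against hypoxia (right; the axes differ in scale); filled points were called and dotted lines mark a fold change of 1.5. On the left 28 points lie beyond the line on the lower side and Bdh1 beyond the upper one, and on the right all 31 points are open and lie between -0.41 and 0.34.

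Exon bases shared with another gene limit a few of these values, since the fragments were counted without strand and those on shared bases cannot be assigned to 1 gene. Shared bases were over 10% of the exon length in 5 of the 31 genes. They were 61.7% in Bckdha (with B3gnt8 on the opposite strand), 23.1% in Mpc1, 16.1% in Pdha1, 13.7% in Bdh1 and 12.6% in Oxct1. B3gnt8 itself had 51 to 86 counts in the control and hypoxia libraries and a change of 0.28 (adjusted p = 0.332), beside 117 to 828 counts of Bckdha. The partner of Bdh1, Gm15743, had 1 to 8 counts in these libraries, beside 135 to 271 counts of Bdh1.

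Within a library the ratio of 2 genes does not depend on the scaling of that library, so partner genes were also compared as ratios of counts per kilobase. A two-sided exact permutation test over 3 against 3 libraries cannot give a p below 0.1, and the smallest adjusted p over the 16 comparisons of 8 pairs was 0.18. The pairs were chosen with earlier results of these data known, and the share of other gene pairs whose ratios separate was not computed. Among single genes tested, 5925 of 16762 lay wholly below control in hypoxia and 6317 wholly above. Sucla2 stood at 3.97 to 4.28 times Suclg2 in control and at 1.85 to 2.29 times in hypoxia (difference of log2 ratios -1.02 ± 0.10 SE, exact p = 0.1, adjusted p = 0.18). The log2 ratio of Mdh1 to Mdh2 was lower by 1.27 ± 0.10, that of Idh3a to Idh3b by 1.24 ± 0.10 and that of Idh3a to Idh3g by 0.38 ± 0.06, each with groups that did not overlap and the same exact p. The ratio of Bckdha to Bckdhb was 1.81 to 2.58 in control and 0.423 to 0.750 in hypoxia (-1.88 ± 0.29, exact p = 0.1). Its level rests on the full exon length of Bckdha, of which 61.7% is shared with B3gnt8, so these values do not show which of the pair was more abundant, while the difference between groups does not depend on the length used. Oxct1 stood at 64.4 to 77.3 times Bdh1 in control and at 17.3 to 21.1 times in hypoxia (-1.91 ± 0.12, exact p = 0.1). The ratios of Got1 to Got2 (1.20 to 1.31 and 1.03 to 1.24) and of Pdha1 to Pdhb (1.49 to 1.57 and 1.53 to 1.80) overlapped between control and hypoxia (exact p = 0.3 and 0.2).

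**Figure D3:**
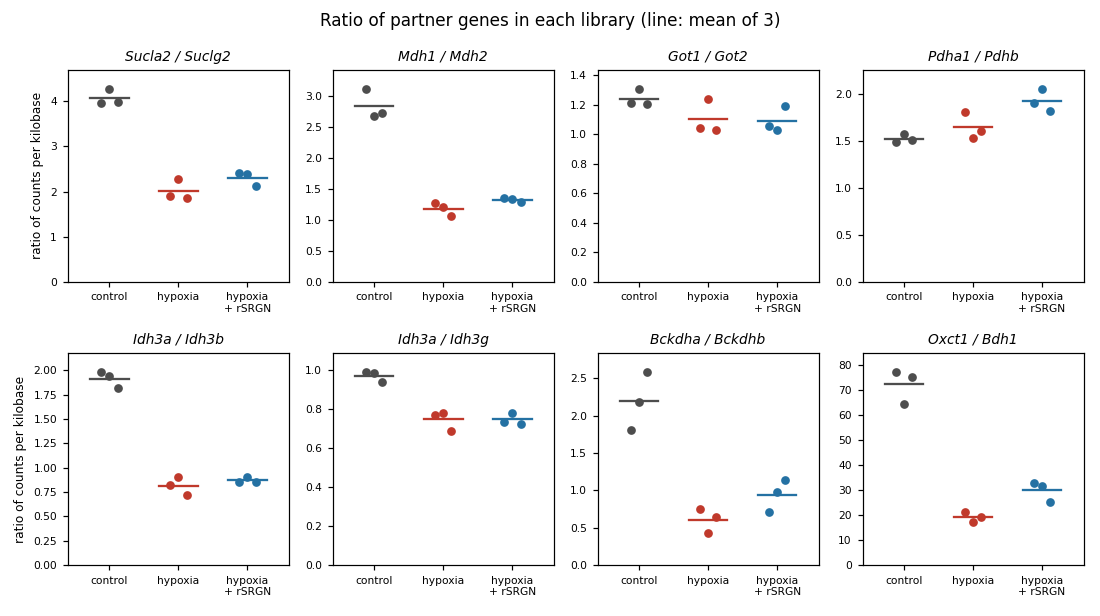
Ratio of counts per kilobase of 2 partner genes in each library (y axis, linear from 0; 1 panel per pair; points are libraries and lines the mean of 3). The control points stand above the hypoxia points without overlap for Sucla2 over Suclg2, Mdh1 over Mdh2, both Idh3a ratios, Bckdha over Bckdhb and Oxct1 over Bdh1, while the groups meet for Got1 over Got2 and Pdha1 over Pdhb.

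The other genes of the same routes were read from lists of their own, and their counts stand beside the 25.1% of all genes tested that were called lower and the 26.4% called higher in this comparison. Of 9 further regulators of pyruvate dehydrogenase, the kinases and phosphatases and the enzymes that attach its lipoyl cofactor, 8 fell and none rose in hypoxia (median log2 change -1.85). The kinases, which switch the complex off, fell together with the complex. Pdk1 went from 87.2 ± 15.1 CPM (SD, n = 3) to 10.4 ± 0.19 CPM (-3.06 ± 0.12 SE, adjusted p = 1.55e-15), Pdk2 from 150.2 ± 10.7 to 18.9 ± 5.03 CPM (-2.99 ± 0.12, adjusted p = 1.73e-15) and Pdk4 from 46.2 ± 1.62 to 11.3 ± 1.97 CPM (-2.03 ± 0.13, adjusted p = 5.83e-12). Pdpr, the regulatory subunit of the phosphatase, fell by 2.46 ± 0.13 (adjusted p = 2.61e-13). The exception was Pdk3 at -0.52 ± 0.08, under the fold limit, which is named after its value was seen.

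Of 16 further genes of the TCA cycle and of the reactions that feed it, 6 fell, 1 rose and 9 were not called, and the median log2 change was -0.09 beside 0.05 over all genes tested. Those that fell included enzymes of the cycle, with the succinate dehydrogenase subunits Sdhd at -1.63 ± 0.07 (adjusted p = 4.76e-15), Sdhb at -1.46 ± 0.07 (adjusted p = 2.41e-14) and Sdhc at -1.42 ± 0.07 (adjusted p = 1.21e-13). The gene that rose was Pck2, the mitochondrial phosphoenolpyruvate carboxykinase (1.496 ± 0.08, adjusted p = 1.96e-13), which is named after its value was seen. Of 6 mitochondrial carriers 3 fell and 1 rose (median -0.89). Slc25a13 (-2.75 ± 0.13) and Slc25a12 (-1.66 ± 0.08), the aspartate-glutamate carriers of the malate-aspartate shuttle, and its malate carrier Slc25a11 (-1.37 ± 0.07) fell with the shuttle enzymes. The citrate carrier Slc25a1, which exports citrate for lipid synthesis, rose from 43.4 ± 0.88 to 113 ± 6.87 CPM (1.38 ± 0.07, adjusted p = 1.49e-13).

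Of 6 other ketone body genes 2 fell and 2 rose (median -0.03), which is near the shares of all genes tested. The monocarboxylate carriers Slc16a1 (-2.34 ± 0.09, adjusted p = 3.70e-16) and Slc16a7 (-2.34 ± 0.18, adjusted p = 1.05e-10), which move lactate, pyruvate and ketone bodies across the cell membrane, fell, while Bdh2 (1.25 ± 0.25, adjusted p = 0.000122) and Acat2, the thiolase of the cytosol (1.14 ± 0.08, adjusted p = 2.09e-11), rose. Bdh1 and Bdh2 were both low, with Bdh2 at 1.86 ± 0.11 CPM in control and 4.43 ± 1.11 CPM in hypoxia. Of 19 other genes of branched-chain amino acid breakdown 13 fell and 1 rose (median -0.92). The largest fall was that of Ppm1k, the phosphatase that switches the branched-chain complex on (39.5 ± 0.91 to 7.16 ± 1.17 CPM, -2.46 ± 0.12, adjusted p = 2.31e-14). Aldh6a1 (-1.78 ± 0.11), Mccc1 (-1.49 ± 0.09) and Ivd (-1.27 ± 0.08), enzymes of valine and leucine breakdown, fell. The rise was that of Bcat1, the branched-chain aminotransferase of the cytosol (1.47 ± 0.10, adjusted p = 5.77e-12), likewise named after its value was seen.

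**Figure D4:**
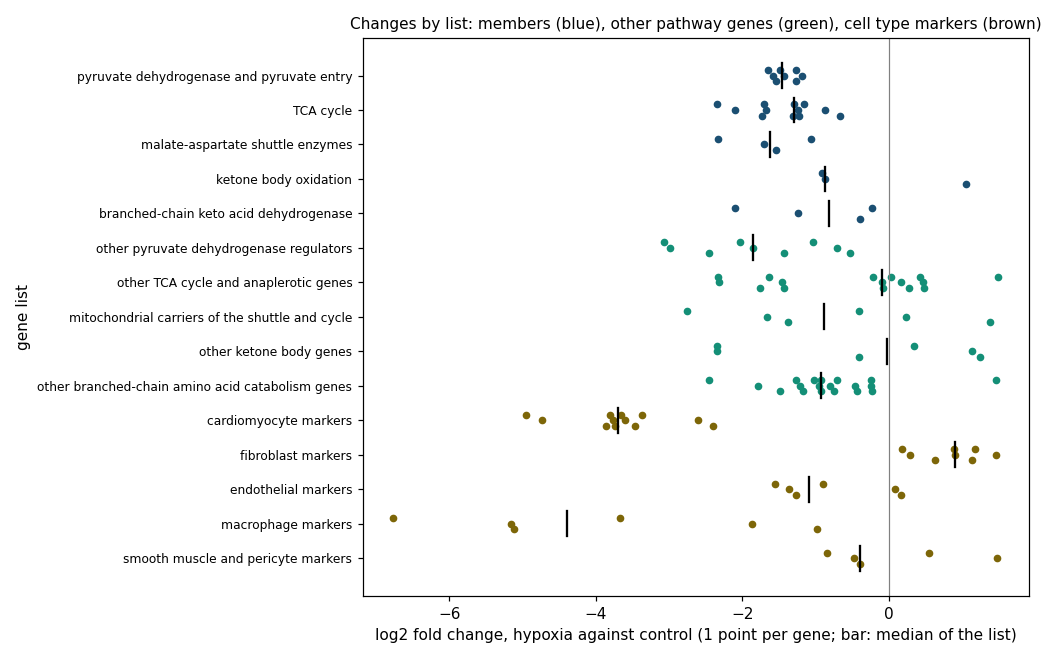
Log2 fold change in hypoxia against control (x axis) of every gene of the 5 groups of members (blue), of the 5 other pathway lists (green) and of the 5 lists of cell type markers (brown); 1 point per gene, with the median of each list as a bar. The medians of the members' groups lie between -1.62 and -0.81, and that of the pyruvate dehydrogenase regulators at -1.85. Those of the marker lists lie at -3.70 (cardiomyocyte), 0.90 (fibroblast), -1.08 (endothelial), -4.39 (macrophage) and -0.39 (smooth muscle and pericyte).

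Hypoxia + rSRGN against hypoxia asks whether the added protein changed these genes under the same medium and oxygen. None of the 31 genes was called (edgeR: 0 lower and 0 higher; DESeq2: 0 and 0), beside 0.859% of all genes tested called lower and 2.27% higher. At an unadjusted p below 0.05, with no limit on the fold, 7 of the 31 were higher and 2 lower, beside 15.9% and 13.5% of all genes tested. The log2 changes ran from -0.41 to 0.34 with SEs of 0.07 to 0.15, and the median was 0.09 over the 31 genes and -0.03 over all genes tested. An adjusted p below 0.05 was reached by 4 genes that were higher and 1 that was lower, all under the fold limit, beside 10.5% and 6.11% of all genes tested. They were Ogdh (0.25 ± 0.07, adjusted p = 0.0186), Mdh1 (0.23 ± 0.07, adjusted p = 0.026), Got2 (0.22 ± 0.07, adjusted p = 0.0303), Oxct1 (0.22 ± 0.07, adjusted p = 0.0341) and Bdh1 (-0.41 ± 0.14, adjusted p = 0.0496). None of the 5 stayed below 0.05 under every alternative tried, with a highest adjusted p of 0.0865 for Ogdh, 0.0972 for Mdh1, 0.129 for Got2, 0.148 for Oxct1 and 0.198 for Bdh1. Without the third hypoxia library or without the first or second hypoxia + rSRGN library, all 5 were above 0.05.

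The values of these 5 genes in hypoxia + rSRGN lay between those of hypoxia and control. The 5 were picked for differing from hypoxia, and both differences use the same 3 hypoxia libraries. A place between the 2 groups is therefore no separate evidence of a return toward control. The 3 hypoxia + rSRGN libraries lay above the 3 hypoxia libraries for 7 of the 31 genes (Pdp1, Cs, Ogdh, Mdh1, Got1, Got2 and Oxct1), as for 16.5% of all genes tested, and below them for 2 (Bdh1 and Acat1), as for 15.5% of all genes tested. Ogdh at 141 to 143 CPM against 111 to 127 CPM remained far under its 589 to 633 CPM in control, and Bdh1 at 9.04 to 11.7 CPM lay between its levels in the other 2 groups. Acat1 differed from that pattern, at 62.5 to 68.5 CPM in hypoxia + rSRGN, 70.4 to 89.1 CPM in hypoxia and 141 to 152 CPM in control (-0.24 ± 0.08 against hypoxia, adjusted p = 0.0535). The genes of pyruvate entry had changes from -0.07 to 0.23, with Pdp1 highest (0.23 ± 0.10, adjusted p = 0.128), and those of the TCA cycle from -0.03 to 0.25. The branched-chain complex held the highest value, Bckdha at 0.34 ± 0.15 (adjusted p = 0.141), and beside it Bckdhb at -0.30 ± 0.15 (adjusted p = 0.174), both with groups that overlapped. Among the ratios those of Mdh1 to Mdh2 (1.28 to 1.35 against 1.06 to 1.27), Pdha1 to Pdhb (1.81 to 2.05 against 1.53 to 1.80) and Oxct1 to Bdh1 (25.1 to 33.0 against 17.3 to 21.1) did not overlap (exact permutation p = 0.1 each, adjusted p = 0.18).

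Among the 56 other genes of these routes 3 (5.36%) were called between hypoxia + rSRGN and hypoxia, all of them higher, beside 2.27% of all genes tested that were called higher and 0.859% lower. Pdk4, the kinase that spares pyruvate when fat is burned, had 18.2 ± 3.45 CPM (SD, n = 3) against 11.3 ± 1.97 CPM (0.69 ± 0.14 SE, adjusted p = 0.00169). Pdk2 had 29.1 ± 0.14 CPM against 18.9 ± 5.03 CPM (0.62 ± 0.12, adjusted p = 0.00185), and Me3, the NADP-dependent malic enzyme of the mitochondrion, 6.08 ± 0.77 CPM against 4.03 ± 0.35 CPM (0.59 ± 0.17, adjusted p = 0.0214). In the same comparison 10 of the 12 cardiomyocyte markers were called higher, with the summed levels given above, and their part in these values was not tested.

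Against control, the hypoxia + rSRGN libraries gave 28 lower genes and 1 higher gene of the 31, beside 24.7% and 24.1% of all genes tested. The comparison shares its control libraries with the one of hypoxia and is no separate evidence. The log2 changes were -2.09 ± 0.07 for Ogdh and for Mdh1, -1.98 ± 0.09 for Idh3a and -1.76 ± 0.14 for Bckdha, and the median over the 31 genes was -1.26. Bdh1 was higher by 0.64 ± 0.15 (adjusted p = 0.000509), and without the third hypoxia + rSRGN library its change was 0.53, under the fold limit. Bckdhb (-0.53 ± 0.14, adjusted p = 0.00223) and Bckdk (-0.39 ± 0.08, adjusted p = 0.000137) passed the adjusted p and were under the fold limit. Bckdhb was called lower without the third control library (-0.62) or without the first hypoxia + rSRGN library (-0.67).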

How the data were processed

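The authors deposited raw counts of fragments for each gene in whole numbers, which per the file headers were made with featureCounts 2.0.1 (paired-end, exons, no strand option) on the GENCODE release M25 annotation. The submitters' processing notes name HISAT2 and mm10. All 9 columns of counts were used and 0 were left out. Libraries were grouped by the treatment in their labels.

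In R 4.3.3, edgeR 4.0.16 removed low genes (filterByExpr), applied TMM scaling and fitted group means over the 9 libraries. The quasi-likelihood test compared groups, p-values were adjusted (Benjamini-Hochberg) over 16762 genes, and calls needed an adjusted p under 0.05 and a change of 1.5-fold or more. SEs are the log2 change over the square root of F. Tested on simulated data, with 200 genes changed 2-fold, the step recovered 174 of them for hypoxia against control (16284 genes), 169 for hypoxia + rSRGN against hypoxia (16297 genes) and 178 for hypoxia + rSRGN against control (16298 genes). False calls numbered 1, 4 and 3 in the same order. Far fewer genes changed there than were called in hypoxia against control, and no change smaller than 2-fold was simulated. The changed genes left out the lowest counts, so these numbers do not give the recovery in the data. Replicates differed by 2.98 to 9.31 in chi-square per degree of freedom, so none was a repeated library.

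The 31 genes, the other lists and the pairs were chosen with earlier results of these data known. All 31 are named, with values in every library for the 5 largest falls, the rise and the paired genes. Other lists give up to 4 genes by the smallest adjusted p, and any called between hypoxia + rSRGN and hypoxia. The values of 1 gene that this rule names are not reported here. The alternatives tried were leaving out each library, a block for the replicate number, fitting the compared groups alone, DESeq2 1.42.0, RLE scaling or none, other filters (1 count in all, or 10 in each library), unadjusted p and calls without a fold limit. Promoters and shared exons came from RefSeq (GRCm38.p6) and the deposited exon coordinates. Figures were drawn with matplotlib 3.10.9.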

Additional observations from a re-analysis of the deposited data

How the results depend on the processing

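The counts of genes called in hypoxia against control (28 lower, 1 higher) were the same or within 1.5 times under every alternative run, and the median change of the 31 genes stayed between -1.35 and -1.22 there, between 0.07 and 0.12 in hypoxia + rSRGN against hypoxia and between -1.31 and -1.22 in hypoxia + rSRGN against control. The median of all genes in hypoxia against control moved between 0.009 and 0.12. Without a fold limit, 1 gene was lower and 4 were higher in hypoxia + rSRGN against hypoxia. With each library left out, the counts of lower and higher genes were 28 to 28 and 1 to 1 in hypoxia against control, 0 to 0 and 0 to 0 in hypoxia + rSRGN against hypoxia, and 28 to 29 and 0 to 1 in hypoxia + rSRGN against control. The higher gene was lost there without hypoxia + rSRGN replicate 3 (Bdh1, 0.53), and Bckdhb was called lower without control replicate 3 (-0.62) or hypoxia + rSRGN replicate 1 (-0.67). Same-numbered libraries did not deviate together (r from -0.073 to 0.073), so the number is not taken as a pairing, and with the replicate block the counts were 28 and 1, 0 and 0, and 28 and 1.

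In hypoxia + rSRGN against hypoxia some log2 changes near 0, none of them called, changed sign. Under RLE scaling, Dlst was 0.027, Suclg2 0.019, Fh1 0.021 and Bckdk 0.027. Under DESeq2, Dlst was 0.027, Suclg2 0.019, Fh1 0.021 and Bckdk 0.027. Under the filter of 1 count in all, Dlst was 0.011, Suclg2 0.0016, Fh1 0.0047 and Bckdk 0.010. Under the filter of 10 counts in each library, Dlst was 0.012, Suclg2 0.0031, Fh1 0.0057 and Bckdk 0.011. Under a fit of both groups alone, Dlst was 0.014, Suclg2 0.0057, Fh1 0.0086 and Bckdk 0.014. With the replicate block, Dlst was 0.00043. With each library left out the ranges were Dlst -0.043 to 0.075, Suclg2 -0.042 to 0.015, Fh1 -0.034 to 0.043, Bckdk -0.027 to 0.028, Pdhb -0.15 to 0.074, Mpc1 -0.019 to 0.12, Dld -0.062 to 0.032, Idh2 -0.030 to 0.12, Idh3b -0.010 to 0.055. The cause was not tested.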
